A study of Mus musculus with 6 samples.

Results

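Chromatin accessibility at 39 genes of the B lymphocyte lineage and of antigen presentation was examined in fetal liver cells of the mouse that carried the MLL-ENL fusion oncogene. The genes were taken from a list of names, and regions were assigned to a gene when they overlapped its annotated body extended by 25 kb on each side. A region in the windows of several of these genes went to the nearest start site. Of the 10016 regions that the authors listed as differing between the compared groups, 28 lay in these windows, and they belonged to 15 of the 39 genes.

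Accessibility was measured by ATAC-seq, in which the Tn5 transposase inserts adapters into open DNA and the reads over a region count its openness. The WT cells are labelled wild-type and derive, by the study's methods, from fetal livers with floxed Cebpa and Cebpb alleles. The dKO cells are clones that lost both Cebpa and Cebpb through Cre recombinase and expressed GFP from a control vector, for which the WT labels name no counterpart, so that clone, vector and genotype cannot be told apart. All cells were transformed with MLL-ENL and grew in medium with 10 ng/ml interleukin 3, and 50000 sorted cells went into each library. Which clones gave the 2 dKO libraries, and whether replicates were separate cultures, was not given in the sources used here. Another group, dKO cells expressing the rat C/EBPβ isoform LAP*, was not analysed here.

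B lymphocytes are specified by a network of transcription factors in which EBF1 and PAX5 act together, and in which FOXO1 supports the genes that rearrange the immunoglobulin loci. Committed B cells assemble an antigen receptor, signal through its CD79 chains, and present antigen on MHC class II molecules, whose transcription depends on the coactivator CIITA. Myeloid cells share part of this equipment, since macrophages and dendritic cells also use MHC class II and the costimulatory proteins CD80 and CD86. C/EBPα is known to convert B cell precursors into macrophage-like cells when it is expressed in them.

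The values are the authors' log2 group means of normalised reads per region, over the 2 libraries of WT and the 2 of dKO. They carry no error, since the table holds no value per library, and differences are given as dKO minus WT on the log2 scale. A region is in the table only because the authors' comparison of 4 libraries passed a corrected P-value of 0.05, and the listing is the only statement of significance used here, since the authors' own p-values were left unused. No replicate test was possible. The lowest level in the table, -0.15, was taken as 1 read per library, which puts a floor of 3 reads per library at 1.43 in both groups. In bulk libraries, fewer cells with an open region and less opening per cell cannot be told apart. At the deleted genes, the region over Cebpa went from 9.99 in WT to -0.15 in dKO, and those over Cebpb from 8.60 to 3.37 and from 7.38 to -0.15.

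The regions over or within 1 kb of an annotated start site of a member, the region with the largest rise and the region with the largest fall above the floor are shown first, because the results turn on them. Each line gives the central 200 bases of a region on the plus strand of mm10. Capitals mark matches to the motifs searched: C/EBP (TTGCNNAA or TTACNNAA), AP-1 (TGAGTCA), PU.1 (GAGGAAGT), RUNX (AACCACA), the octamer (ATGCAAAT), EBF (TCCCNNGGG), an ETS-IRF composite (GGAANNGAA), an E-box (CAGGTG) and the class II Y box (CTGATTGG), on both strands.
Pax5 chr4:44645239-44645438: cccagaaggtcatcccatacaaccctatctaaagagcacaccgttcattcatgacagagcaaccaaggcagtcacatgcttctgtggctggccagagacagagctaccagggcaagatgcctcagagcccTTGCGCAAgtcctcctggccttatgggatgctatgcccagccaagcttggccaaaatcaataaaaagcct
Ebf1 chr11:44617048-44617247: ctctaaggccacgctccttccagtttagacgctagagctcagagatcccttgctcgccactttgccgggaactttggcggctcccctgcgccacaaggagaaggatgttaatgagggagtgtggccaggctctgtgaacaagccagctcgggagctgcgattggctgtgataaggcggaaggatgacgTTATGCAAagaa
Foxp1 chr6:99188941-99189140: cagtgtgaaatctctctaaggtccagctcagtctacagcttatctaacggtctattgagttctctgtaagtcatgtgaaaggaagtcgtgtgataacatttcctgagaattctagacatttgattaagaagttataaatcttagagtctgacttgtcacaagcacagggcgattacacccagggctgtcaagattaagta
Foxp1 chr6:99436384-99436583: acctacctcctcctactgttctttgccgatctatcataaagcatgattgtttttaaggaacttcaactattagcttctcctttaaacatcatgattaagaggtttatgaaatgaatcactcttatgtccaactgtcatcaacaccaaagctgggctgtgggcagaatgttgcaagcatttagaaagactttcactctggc
Prdm1 chr10:44529432-44529631: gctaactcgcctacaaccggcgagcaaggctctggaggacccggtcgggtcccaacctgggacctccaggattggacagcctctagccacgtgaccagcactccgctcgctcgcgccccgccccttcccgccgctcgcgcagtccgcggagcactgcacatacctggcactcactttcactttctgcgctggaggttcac
Cd24a chr10:43578763-43578962: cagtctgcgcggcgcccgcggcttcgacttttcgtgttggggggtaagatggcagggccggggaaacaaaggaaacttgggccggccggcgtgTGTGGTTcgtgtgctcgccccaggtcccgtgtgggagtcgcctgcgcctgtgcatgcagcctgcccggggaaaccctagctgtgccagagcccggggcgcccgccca
Cd55 chr1:130462487-130462686: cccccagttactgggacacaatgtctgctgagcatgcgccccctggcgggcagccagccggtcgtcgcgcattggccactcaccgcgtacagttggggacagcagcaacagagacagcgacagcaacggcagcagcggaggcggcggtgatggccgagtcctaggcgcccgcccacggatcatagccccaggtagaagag
Cd37 chr7:45211937-45212136: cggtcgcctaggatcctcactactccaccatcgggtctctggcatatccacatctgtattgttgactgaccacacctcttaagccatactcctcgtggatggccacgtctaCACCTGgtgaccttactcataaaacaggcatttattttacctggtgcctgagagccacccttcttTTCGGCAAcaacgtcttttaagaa

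A single C/EBP match stands in the Pax5 sequence, where it is the palindrome TTGCGCAA, in the Ebf1 sequence (TTATGCAA) and in the Cd37 sequence (TTCGGCAA), which also holds an E-box (CACCTG). The Cd24a sequence holds a RUNX match (TGTGGTT). Neither Foxp1 sequence and neither the Prdm1 nor the Cd55 sequence held any of these letters in this window.

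Across all members, 17 of the 28 regions were higher in dKO and 11 were lower, or 60.7% higher, beside 60.3% of all 10016 listed regions. The share is near the background and is no result about these genes. At least 2-fold higher regions numbered 11 of 28, against 49.6% of all listed regions, and at least 2-fold lower regions also numbered 11, against 35.9%. All 11 lower member regions were thus at least 2-fold lower, as were 3596 of the 3981 lower listed regions, so this is not particular to the members. The median difference was 0.86 over the 28 regions and 0.98 over all listed regions. Among higher regions it was 1.17 for members and 1.58 for all listed regions, and among lower regions -2.00 and -1.85. The highest member value was 4.10, and the lowest was a fall of at least 3.28 at Pax5, whose dKO level was under the floor.

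**Figure D1:**
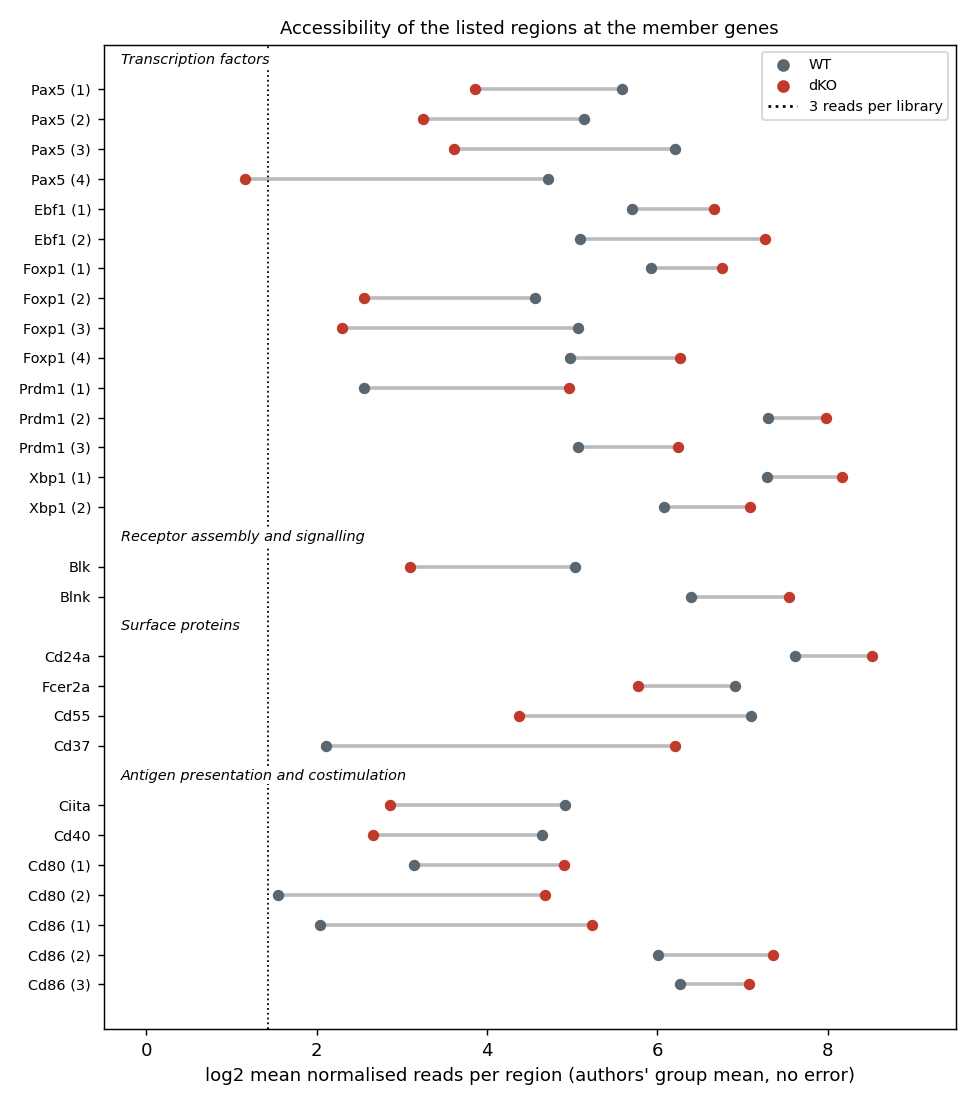
Log2 mean normalised reads (horizontal axis) of each of the 28 listed regions at member genes, in WT (grey) and dKO (red), grouped by the role of the gene and numbered by position where a gene has several. The points are the authors' group means without error, and only 1 region, Pax5 (4), lies under the dotted floor of 3 reads per library in a group.

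The members with a listed region made up 38.5% of the list (15 of 39), beside 35.2% of the 21755 protein-coding genes under the same rule. Of the 15, 8 genes had only higher regions (Ebf1, Prdm1, Xbp1, Blnk, Cd24a, Cd37, Cd80 and Cd86), 6 had only lower regions (Pax5, Blk, Cd55, Fcer2a, Ciita and Cd40), and Foxp1 had both. After subtraction of the median difference of all listed regions, only Blnk, Cd37 and Cd80 among the 8 still had only higher regions. The windows of members with a region had a median length of 94.2 kb and those of the other members 65.8 kb, and the same order held for all protein-coding genes (78.5 and 63.5 kb). Longer windows offer more room for a region. The other 24 members had no listed change, which covers regions that did not pass the authors' threshold as well as closed ones.

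The transcription factors were the most densely listed role after antigen presentation, with 15 regions at 5 of 10 genes. That is 50% of the genes, beside 35.2% of protein-coding genes. The median window of this role was 142 kb, against 73.7 kb over all members. Of the 15 regions 9 were higher and 6 lower, or 60% higher beside 60.3% of all listed regions. PAX5, which maintains B cell identity, and EBF1, which specifies the lineage, are partners in B cells, and their loci differed in opposite directions. Pax5 had 4 regions, all intronic and all lower in dKO. Ebf1 had 2 regions, both higher. Of all listed regions, 46.5% were higher on chromosome 4, which carries Pax5, and 62.6% on chromosome 11, which carries Ebf1. The part of the chromosomes in this contrast was not tested. After subtraction of the median difference of all listed regions (0.98), 1 of the 2 Ebf1 regions was no longer higher, as its difference was 0.97.

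At Pax5 (chromosome 4, 44524757 to 44710487, minus strand), the region at 44645225 to 44645451 had a level of 4.71 in WT and 1.16 in dKO. The dKO level was under the floor, and against the floor accessibility was at least 9.71-fold lower. This region lies 272 bp from the start of a shorter annotated protein-coding transcript, inside an intron of the full-length gene, and it holds the palindromic C/EBP match shown above. The other 3 Pax5 regions lay close together, between 44564647 and 44566137, about 80 kb downstream of that start. Among them, the region at 44565604 to 44566137 went from 6.21 to 3.61, a difference of -2.60 or 6.06-fold. The remaining pair differed by -1.72 and -1.89. Regions this close may share fragments and may not be independent.

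At Ebf1 (chromosome 11), the region at 44616880 to 44617414 spans the annotated start of the gene and overlaps noncoding exon sequence and the transcript Gm37695. Its level was 5.09 in WT and 7.26 in dKO, a difference of 2.17 or 4.50-fold. A larger rise was found at 26.4% of all higher listed regions. A second region 10038 bp upstream (44606926 to 44607279) went from 5.70 to 6.67 and held a PU.1 match. Both Ebf1 regions were thus open in WT as well as in dKO.

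Foxp1 encodes a forkhead factor needed for early B cell development, and its long body held 2 higher and 2 lower regions on chromosome 6. The largest difference was a fall at 99188879 to 99189201, an intronic region with a level of 5.07 in WT and 2.30 in dKO (-2.77, or 6.82-fold). A further intronic region at 99057227 to 99057544 differed by -2.00. By contrast, the region at 99436196 to 99436770, which spans the start of a noncoding Foxp1 transcript and overlaps Gm20696, went from 4.97 to 6.27, a difference of 1.30. The fourth, intronic region (98997664 to 98998166) went from 5.92 to 6.76.

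Prdm1 encodes BLIMP-1, which drives plasma cell differentiation and represses Pax5 in that setting, and all 3 of its regions were higher. The intronic region at 44475466 to 44475764 on chromosome 10 went from 2.56 in WT to 4.96 in dKO (2.40, or 5.28-fold). The region 672 bp upstream of a start site (44529173 to 44529890) was already strongly open in WT, with 7.30 and 7.98, and its difference of 0.68 was the smallest among the 28 regions. The region 10446 bp upstream of that start site differed by 1.17. Chromosome 10 had 82.0% higher regions among all that were listed on it, and all 4 member regions on it, with the region of Cd24a, were higher. The part of the chromosome in these differences was not tested.

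Xbp1, whose product supports the secretory apparatus of plasma cells, had a region 10879 bp upstream (chromosome 11, 5509248 to 5509780) that went from 7.29 to 8.17. Its largest difference, 1.01, lay downstream of the gene at 5527833 to 5528477, with 6.08 in WT and 7.09 in dKO. No region was listed at Foxo1, Pou2f1, Pou2f2 and Pou2af1, or at Bcl7a, which encodes a subunit of the BAF chromatin remodelling complex and was grouped with the factors. Their nearest listed regions lay from 86.7 kb (Pou2f2) to 172 kb (Bcl7a) from the gene body.

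**Figure D2:**
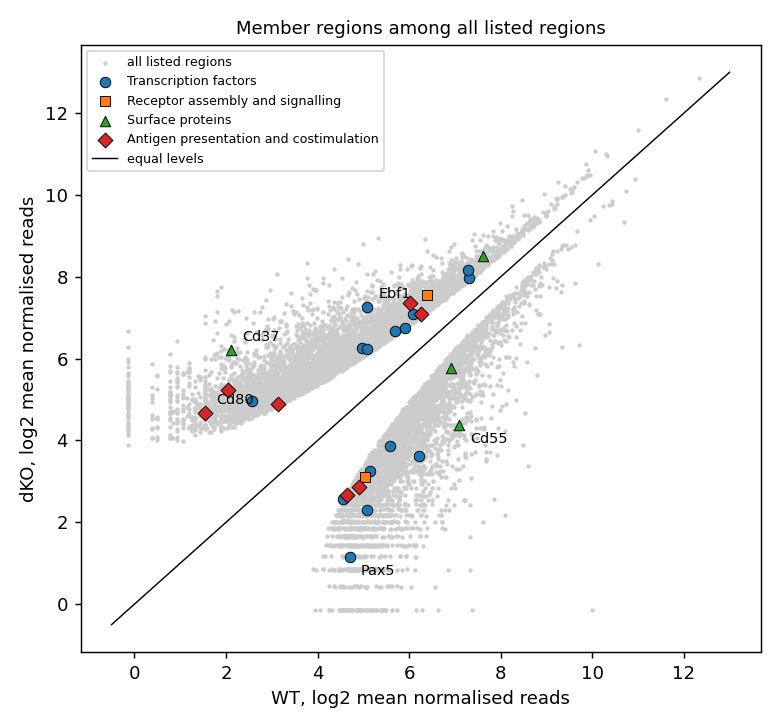
Level in dKO (vertical axis) against WT (horizontal axis), both as log2 mean normalised reads, for the 10016 listed regions (grey) and the 28 member regions by role (coloured symbols), with the line of equal levels. The band along the line is empty because only changed regions are listed, and Cd37 has the largest rise among members (4.10) and Pax5 the largest fall, which is at least 3.28 because its dKO level was under the floor.

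Genes that build the antigen receptor and carry its signal were the least often listed role, with 2 regions at 2 of 10 genes. That is 20% of the genes, beside 35.2% of protein-coding genes, and the difference was not tested. The median window of this role was the shortest among the roles, at 59.5 kb against 73.7 kb over all members. Blnk encodes an adaptor that links the receptor to downstream enzymes. A region 3953 bp upstream of its start (chromosome 19, 40998488 to 40999214) went from 6.39 in WT to 7.55 in dKO, a difference of 1.16 or 2.23-fold. Blk encodes a Src-family kinase of B cells. Its region (chromosome 14, 63436247 to 63436549) lay 19210 bp upstream, over a start site of the neighbouring gene Fam167a, and went from 5.03 to 3.10 (-1.93).

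No region was listed at Cd79a and Cd79b, the signalling chains of the receptor, at Vpreb1 and Igll1, the surrogate light chain genes, or at Rag1, Rag2 and Dntt, which rearrange and diversify the receptor genes. Bank1, a signalling scaffold, also had none. The nearest listed region lay 29.6 kb from Rag2 and 30.1 kb from Dntt, just outside the windows. At Vpreb1 and Igll1 it lay 168 and 174 kb away. Whether these loci were closed in both groups or open without a listed change cannot be read from a table of changed regions.

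Of the 12 surface proteins, 4 (33.3%, beside 35.2% of protein-coding genes) had a listed region, 2 of them higher and 2 lower. Cd55 encodes decay-accelerating factor, which protects cells from complement. Its promoter region (chromosome 1, 130462249 to 130462924) spans a start site of the gene, overlaps coding sequence and the transcript Gm16083, and went from 7.10 in WT to 4.38 in dKO. The difference was -2.72, or 6.59-fold, and 21.4% of the lower listed regions fell further. Cd24a encodes a small glycosylated surface protein of immature B cells and many progenitors. The region over its start and coding sequence (chromosome 10, 43578349 to 43579375) was the most open of the member regions in both groups, with 7.61 in WT and 8.52 in dKO.

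The largest rise among the members was in the window of Cd37, which encodes a tetraspanin of mature leukocytes. This region (chromosome 7, 45211770 to 45212302) went from 2.11 in WT to 6.21 in dKO, a difference of 4.10 or 17.1-fold, and only 2.42% of the higher listed regions rose more. It lies 21330 bp downstream of the Cd37 body and overlaps a start site of Dkkl1, so the rule places it with Cd37 although Dkkl1 is the nearer gene. The region of Fcer2a, which encodes the low-affinity IgE receptor, lay 24365 bp upstream over a start site of the lectin gene Clec4g (chromosome 8, 3718540 to 3719063). It went from 6.91 to 5.77.

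Ms4a1, which encodes the B cell antigen CD20, had no listed region, and neither had the inhibitory receptors Cd22 and Cd72, the ectoenzyme Cd38, the complement receptor Cr2, the BAFF-binding receptors Tnfrsf13b and Tnfrsf13c or the tetraspanin Cd53. Ms4a1 was the farthest of all members from a listed region, at 219 kb. At Tnfrsf13c a region with a difference of -3.99 lay 36.2 kb from the gene, outside the window.

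Of the 4 roles, antigen presentation and costimulation had the highest density of regions, with 7 regions at 4 of 7 genes (57.1%, beside 35.2% of protein-coding genes). That is 12.9 per Mb of window against 6.28 over all members, from windows of only 0.544 Mb. The whole genome held 3.8 listed regions per Mb, but it includes sequence outside gene windows and is not a like baseline. A high density is not particular to this role, since it was 12.8 per Mb at the further B-lineage genes and 21.2 at the myeloid markers described last. No region was listed at the class II chain genes H2-Aa and H2-Ab1 or at Cd74, the invariant chain that escorts class II molecules. Their nearest listed regions lay 111, 129 and 151 kb away. Of the 7 regions 2 lay in a gene body, both in Cd86, and the others lay outside the genes.

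Cd80 and Cd86 encode the costimulatory ligands that antigen-presenting cells show to T cells, and all 5 of their regions, on chromosome 16, were higher in dKO. At Cd86 the region at 36588001 to 36588297, downstream of the gene, went from 2.04 in WT to 5.23 in dKO (3.19, or 9.13-fold). Intronic regions of Cd86 went from 6.01 to 7.36 and from 6.26 to 7.08. At Cd80 the region at 38444124 to 38444366 went from 1.54, just above the floor, to 4.68 (3.14, or 8.82-fold), and its neighbour at 38442835 to 38443107 from 3.14 to 4.90. These Cd80 regions lay 11195 and 12454 bp upstream of the gene, where the start of Adprh is nearer. Chromosome 16 had 73.0% higher regions among all listed on it.

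Cd40, the receptor through which T cells activate B cells and macrophages, and Ciita each had a single lower region. The Cd40 region (chromosome 2, 165074350 to 165074789) lay 1402 bp past the end of the gene and went from 4.64 to 2.66, a difference of -1.98 or 3.94-fold. The Ciita region (chromosome 16, 10550766 to 10551044) went from 4.91 to 2.86 (-2.05), lay 22348 bp past the gene in the neighbouring Clec16a, and was 5357 bp from a Clec16a start site. It is therefore not at any annotated start of Ciita.

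**Figure D3:**
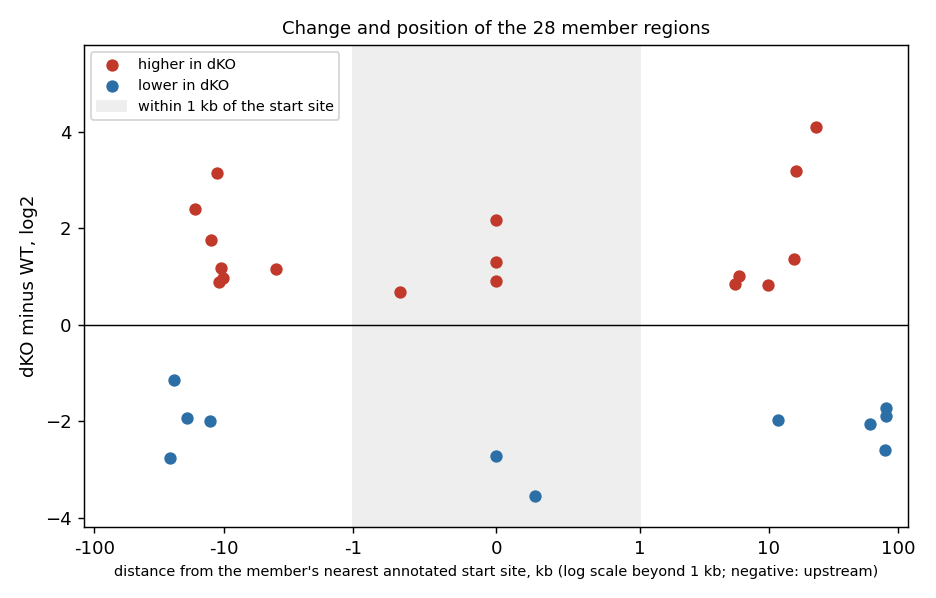
Difference between dKO and WT (vertical axis, log2) of the 28 member regions against their distance from the nearest annotated start site of the member (horizontal axis, kb, log scale beyond 1 kb, upstream negative). Of 6 regions within 1 kb of a start site, 4 were higher (red) and 2 lower (blue), and regions at 0 overlap the start site.

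The positions of the regions varied as widely as their directions. Within 1 kb of a start site of the member lay 6 regions (21.4%), at Pax5, Ebf1, Foxp1, Prdm1, Cd24a and Cd55, whereas 14.9% of all listed regions lay within 1 kb of a protein-coding start. The shares are over different sets of start sites and are given side by side only. The gene body contained 14 regions, 10 of them in introns, and of the 14 outside it 9 lay upstream and 5 downstream. For 6 regions, at Blk, Fcer2a, Cd37, Ciita and Cd80, the nearest protein-coding start belonged to another gene. Without these 6, 14 of 22 regions at 10 genes were higher, or 63.6%.

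Motif matches in the central 200 bases were then counted by direction. AP-1 matches occurred in 5 of the 17 higher member regions (29.4%) and in 0 of the 11 lower ones, beside 26.7% of all higher and 4.67% of all lower listed regions. The C/EBP letters occurred in 4 higher and 2 lower member regions, or 23.5% and 18.2%, beside 20.1% and 40.8% of all listed regions. Both lower regions with a C/EBP match were at Pax5. PU.1 matches were in 3 higher (17.6%) and 0 lower member regions, beside 13.1% of all higher and 3.34% of all lower listed regions. RUNX matches were in 4 higher and 1 lower member region (23.5% and 9.09%), beside 13.8% and 9.04% of all listed regions. The E-box was in 5 higher and 1 lower member region (29.4% and 9.09%), beside 8.14% and 12.6%. The octamer, to which the products of Pou2f1 and Pou2f2 bind, EBF and the class II Y box had no match in any of the 28 windows. They were also rare among all regions, at 0.709%, 3.44% and 1.89% of all listed regions. With 28 regions these counts are descriptions only.

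The AP-1 matches are shown with 12 bases on each side because in these windows they occurred in higher regions and in no lower one, a choice made after the matches were seen. Over whole regions, 8 higher (47.1%) and 1 lower (9.09%) member region held a match, beside 36.1% and 8.89% of all listed regions. They lie in an intronic Prdm1 region, upstream of Xbp1, in both Cd80 regions and in an intronic Cd86 region, with the match in capitals on the plus strand of mm10.
Prdm1 chr10:44475504-44475534: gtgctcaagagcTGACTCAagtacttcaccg
Xbp1 chr11:5509524-5509554: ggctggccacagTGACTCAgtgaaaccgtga
Cd80 chr16:38442971-38443001: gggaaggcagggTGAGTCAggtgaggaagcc
Cd80 chr16:38444240-38444270: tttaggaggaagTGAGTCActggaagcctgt
Cd86 chr16:36626989-36627019: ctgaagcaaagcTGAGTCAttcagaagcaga

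The Cd80 match in the window 38444240 to 38444270 directly follows the letters GAGGAAG, so that it overlaps a PU.1 match of the same region. The differences of these 5 regions were 2.40 (Prdm1), 0.88 (Xbp1), 1.76 and 3.14 (Cd80) and 1.35 (Cd86).

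**Figure D4:**
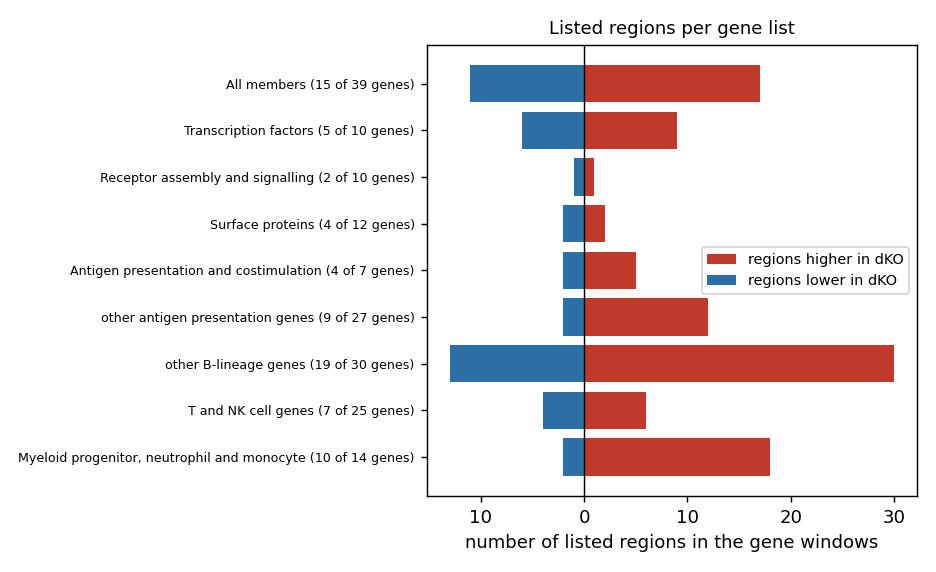
Number of listed regions (horizontal axis) higher in dKO (red, right) and lower (blue, left) in the windows of each gene list, with the genes that have a region in brackets. Members show 17 and 11 regions, other B-lineage genes 30 and 13, and myeloid marker genes 18 and 2.

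Related genes outside the list were examined under the same rule. Of 27 further antigen presentation genes, 9 (33.3%, beside 35.2% of protein-coding genes) had 14 regions with a median difference of 1.14. Of these regions 12 were higher and 2 lower, or 85.7% higher beside 60.3% of all listed regions. Of the higher regions 6 were at Cd274 and Pdcd1lg2, which encode inhibitory ligands of T cells and not presentation machinery. Without these neighbouring genes, 6 of 8 regions were higher. Pdcd1lg2 had the largest rise (3.07 in WT, 6.49 in dKO) and Nlrc5, the coactivator of MHC class I genes, the largest fall (5.45 and 3.44), followed by Cd274 (3.10) and H2-Oa (1.37) among the rises and by Cd83 (-1.05) among the falls.

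Of 30 further B-lineage genes, 19 (63.3%, beside 35.2% of protein-coding genes) had 43 regions with a median difference of 1.15. Of these regions 30 were higher and 13 lower, or 69.8% higher beside 60.3% of all listed regions. The largest fall was at Bach2, which encodes a repressor of plasma cell genes, at 32289820 to 32290203 on chromosome 4 (5.92 in WT, 2.03 in dKO). Pik3ap1 (-2.14), which encodes a signalling adaptor, came next. The largest rise with both levels above the floor was at Tcf4, an E protein gene, where a region went from 4.67 to 8.43. Another Tcf4 region went from -0.15 in WT, under the floor, to 5.08 in dKO, so its rise is a lower bound only. All listed Tcf4 regions were higher, so this single gene gave several of the 30 higher regions, and the share without it was not computed. Fcgr2b, the inhibitory Fc receptor, rose by 2.99 and Ptpn6, a phosphatase gene, by 2.40.

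As a lymphoid list of another lineage, 7 of 25 T and NK cell genes (28%) had 10 regions, 6 higher and 4 lower, or 60.0% higher with a median of 1.40. The difference in counts between this list and the members was not tested. Of 14 myeloid marker genes, 10 (71.4%) had 20 regions, 18 of them (90.0%) higher, beside 35.2% of protein-coding genes with a region and 60.3% of listed regions higher. Of 4 erythroid markers 1 had 1 higher region, at Epor. The largest rise with both levels above the floor was at Itgam (2.70). A Kit region went from 1.26 in WT, under the floor, to 4.52 in dKO, so its rise is a lower bound only. Csf3r (1.36 and -1.14) and Mpo (0.95 and -1.13) each had a higher and a lower region. The part of the myeloid genes in the members' values was not tested.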

How the data were processed

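The 39 genes and all gene lists were chosen with earlier results of these data known. ATAC-seq reads were preprocessed by the authors with PiGx, aligned to mm10 with Bowtie2, and peaks were called with MACS2 and compared with DiffBind 2.14.0. Handling of duplicates, the Tn5 offset and the merging of peaks were not given in the sources used here; kept duplicates would raise strongly amplified regions. The authors deposited log2 values, namely the log2 of the mean normalised read count of a region over both groups and over each group. Their columns of fold change, p-value and FDR were not used. Both deposited files were identical, so dKO-LAP* was not analysed. Depth per library was not part of the table, and the floor of 3 reads covers counting error only.

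Differences were computed as dKO minus WT from the group means. Gene bodies and start sites came from GENCODE M21 and sequence from GRCm38.p6, whose chromosomes are those of mm10. All 36 RefSeq promoters (GRCm38.p6) found for 29 members matched the bases read from the genome. Placement and motif search were tested on simulated regions with known answers. Python 3.11.15, pandas 2.3.3 and samtools 1.23.1 were used. No planned test applied, because no value per library was present in the file used here. All 39 genes are named. Full values are given for each member's regions at a start site and for its region with the largest difference, and for the related lists the 3 genes with the largest rise and fall, of which 1 is not reported here. The alternatives were other windows, nearest protein-coding start, minimum difference, floor, centring, start-site distance and motif scope.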

Additional observations from a re-analysis of the deposited data

How the results depend on the processing

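The regions at the members numbered 28 at 15 genes in the windows of 25 kb, 34 at 19 genes in windows of 50 kb, 18 at 10 genes in windows of 10 kb and 14 at 7 genes in the gene body alone. Their median difference of 0.86 was -0.45 in the gene body alone, -0.06 among regions with an absolute difference of at least 1, and -0.12 after subtraction of the median of all listed regions, so its sign is not stable. That subtraction left 39.3% of the member regions higher, where by construction about 50% of all listed regions stay higher. Cd24a went from 1 to -1 in higher minus lower regions, since its difference of 0.91 is under the median of 0.98. By the same measure Ebf1 and Xbp1 went from 2 to 0, Foxp1 from 0 to -2, and Prdm1 and Cd86 from 3 to 1. Over the other 6 alternatives the share of higher regions ranged from 50% to 63.6%, but most of these share regions with the main set and say little about its stability. Searching whole regions in place of 200 bases raised the number with a match from 6 to 10 for C/EBP, from 5 to 9 for AP-1, from 6 to 10 for the E-box, from 0 to 2 for EBF and from 1 to 3 for the ETS-IRF composite, as more bases were searched. Blk, Fcer2a, Cd37, Ciita and Cd80 had no region in windows of 10 kb. Leaving the 2 inhibitory ligand genes out of the antigen presentation list was chosen after seeing the data. No paired analysis was possible because the file used here holds means per group, without values of single libraries, and leaving out a replicate was likewise impossible. The fall near the internal Pax5 start is a bound that rests on the floor of 3 reads per library.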
